A study of Mus musculus with 6 samples.

Results

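The genes described here make and fold new protein: translation initiation and elongation factors, aminoacyl-tRNA synthetases, chaperones and a few proteins that work at the ribosome. They were taken by gene name from a deposited table of RNA levels in mouse intestinal epithelial cells. Names starting with Eif, Eef, Hsp, Dnaj, Pfdn or Cct and a digit, or ending in ars, ars1 or ars2, were kept, together with Tcp1, Asns, Tpt1, Naca, Btf3, Gnb2l1 and Rack1. This gave 27 of the 1386 entries. Of these, 7 were initiation factors by name, 5 belonged to elongation, 6 were tRNA synthetases, 4 were Hsp proteins or their partners, and Asns, Rack1, Cct3, Dnajb2 and Hspg2 completed the set. Hspg2 matches the name only: it encodes perlecan, a proteoglycan of the basement membrane.

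Both groups were wild-type mice kept on a normal diet, and they differed in what was given by gavage. Daily gavage began at 8 weeks of age and lasted 7 weeks, with 400000000 cells a day of the mucin-feeding gut bacterium Akkermansia muciniphila (Akk) in 3 libraries and with PBS, the carrier, in 3 libraries. Strain, sex and whether each library is its own mouse were not given in the sources used here, so the spread between libraries may be technical. The table held only genes that its authors had selected as differing between these same 6 libraries. Being in it is therefore no independent evidence, and the direction of each gene was fixed by that selection. Every p-value and adjusted p-value computed below carries the same selection and is biased low. The fragment depth implied by the ratio of count to FPKM (fragments per kilobase of gene model scaled to library depth) was 23457467 to 29245800 per library. PBS replicate 2 stood apart: of the 1040 genes listed as lower in Akk, 1022 were highest in it (98.3%).

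Translation starts when initiation factors bring the small ribosomal subunit and the initiator tRNA to an mRNA. The eIF3 complex scaffolds this step and eIF2B recharges the GTPase eIF2, which makes it a control point under stress. The eEF1 complex then delivers charged tRNAs, which the aminoacyl-tRNA synthetases make, and chaperones such as Hsp70, Hsp60 with its lid Hsp10, and the TRiC/CCT chaperonin fold the product. In the intestine, protein synthesis capacity is high in the dividing cells of the crypt, and many mRNAs of the translation machinery begin with a pyrimidine tract (a TOP motif) through which mTORC1 and LARP1 control their translation.

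Short stretches near the start of 7 of the genes are printed because their letters resemble control elements for which these families are known. RefSeq (GRCm38.p6) start windows were matched for 19 of the 27 genes. At the annotated start, an unbroken run of at least 6 C or T bases covering the annotated first base was searched. It was found in Eef1a1, Eif3f and Rack1, and in 7.25% of all 32851 windows. The runs began before the annotated start, at position -5 in Eef1a1, -4 in Eif3f and -6 in Rack1. Whether transcription begins at these annotated starts, and whether any run is a TOP motif, was not tested. In the lines that follow each stretch holds 15 bases before the start and 15 from it on, and capitals mark the run. Eef1b2, another eEF1 subunit, is shown as a window without a run over its annotated start.
Rack1, chr11:48800345-48800374, plus strand: cggaggccgCTCTTTCTTTTTCTCCacagg
Eif3f, chr7:108934400-108934429, plus strand: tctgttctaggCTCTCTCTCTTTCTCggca
Eef1a1, chr9:78481710-78481739, minus strand: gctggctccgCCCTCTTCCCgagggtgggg
Eef1b2, chr1:63176816-63176845, plus strand: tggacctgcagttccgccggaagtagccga

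Asns and several tRNA synthetase genes are textbook targets of the stress factor ATF4, which binds a C/EBP-ATF response element. The letters TGATGNAA were searched on both strands in the 250 bases before each start. They were found in Asns and Gars, and in 3.45% of all windows. In Asns they form the longer TGATGAAAC, the nutrient-sensing element of that gene, which 0.21% of windows hold. Capitals mark the match, which in Gars lies on the opposite strand.
Asns, chr6:7693214-7693243, minus strand: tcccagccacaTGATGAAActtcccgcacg
Gars, chr6:55037960-55037989, plus strand: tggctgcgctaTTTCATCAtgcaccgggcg

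Hspd1 and Hspe1, which encode Hsp60 and Hsp10, lie head to head on chromosome 1, with Hspd1 on the minus strand (55077835 to 55088243) and Hspe1 on the plus strand (55088132 to 55091307). A heat shock element, the binding site of HSF1, is built of alternating GAA and TTC units; 3 alternating units, GAA, TTC and GAA, set apart by any 2 bases each, were searched on both strands, and matches may overlap. They were found in the windows of Hspd1 and Hspe1 and in 0.47% of all windows. The overlapping matches form 1 site, from 55088059 to 55088076, read from either strand, and capitals mark it.
Hspe1, chr1:55088053-55088082, plus strand: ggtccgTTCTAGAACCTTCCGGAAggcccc
Hspd1, chr1:55088053-55088082, minus strand: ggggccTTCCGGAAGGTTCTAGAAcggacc
The shorter GAANNTTC, which is contained in the longer motif, was also found in Asns, Eefsec and Eif3f, and in 6.69% of windows. These matches describe letters in the windows; binding of any factor was not measured.

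Of the 27 genes, 26 were listed as lower in Akk and Dnajb2 was listed as higher. In each of the 26 genes every Akk library lay below every PBS library, and PBS replicate 2 was the highest of the 6 libraries. Leaving out a library cannot create overlap, so the same 26 genes necessarily had none without PBS replicate 2. These 26 are 96.3% of the 27 genes, of which all but 1 were listed as lower. As background, 65.9% of all entries and 87.8% of those listed as lower had Akk below PBS without overlap, or 66.0% and 88.0% without PBS replicate 2. Another 9.45% of all entries had Akk above PBS without overlap, none of them among the 27. Values per library are given in the order of replicates 1, 2 and 3. The 27 genes together took 0.426%, 1.66% and 0.41% of the implied depth in the PBS libraries, and 0.265%, 0.259% and 0.245% in the Akk libraries. The RNA is from bulk cells, so fewer cells of a kind and less RNA per cell cannot be told apart.

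**Figure D1:**
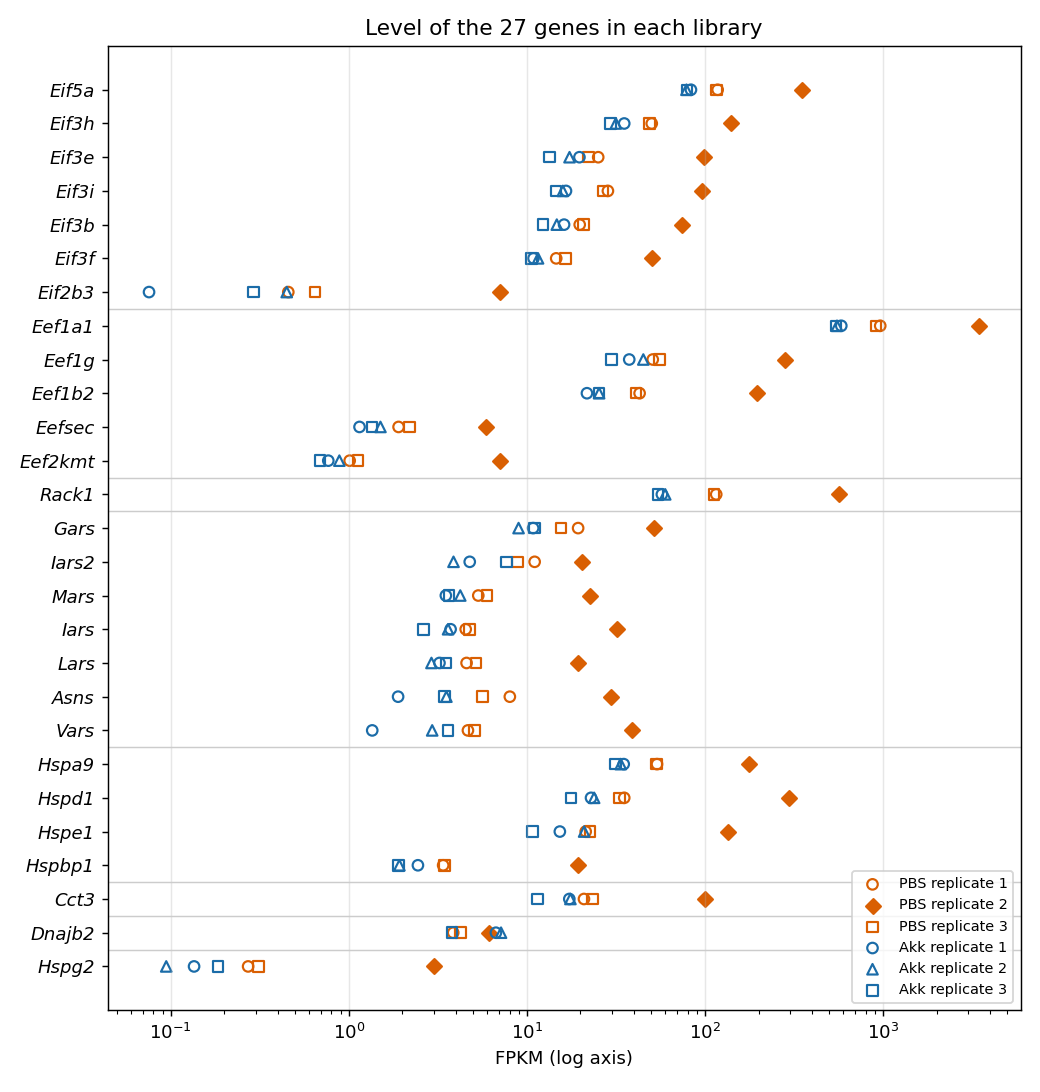
FPKM of each of the 27 genes (rows, grouped by role and ordered by their Akk mean) in each of the 6 libraries, on a log axis. The filled diamonds, PBS replicate 2, lie to the right in every row but that of Dnajb2, and the blue Akk symbols lie left of the open PBS symbols in 26 rows.

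The fitted difference (edgeR quasi-likelihood test on the counts, Akk over PBS, adjusted over all 1386 entries by Benjamini-Hochberg) did not pass 0.05 for any of the 27 genes with all 6 libraries. The smallest adjusted p was 0.0861, and 20 genes had an unadjusted p under 0.05 (74.1% of them, against 57.1% of all entries). The closer background is the entries listed as lower: 753 of 1040 had such a p, beside 20 of the 26 genes. The background of calls was 0% for this test. DESeq2 called 22 of the 24 genes to which it gave an adjusted p, all lower, against 69.9% of all entries with one in either direction and 63.3% as lower. Limma-voom and a replicate term in edgeR called 0 of the 27 genes, with backgrounds of 0.144% and 0.433% of entries (0% and 0.289% as lower). Without PBS replicate 2, edgeR called 7 of the 27 genes, all lower in Akk. That is 25.9% of them against 17.7% of all entries called lower and 19.5% in either direction. Among entries listed as lower, 246 of 1040 were called, beside 7 of the 26 genes, so the shares lay near each other. These 7 were Rack1, Eef1b2, Eef1a1, Eif3i, Hspa9, Gars and Asns. Such calls come from entries selected on the same libraries and are no independent evidence of a difference. Leaving out PBS replicate 1 instead gave 16 calls, beside 53.0% of all entries (52.2% as lower), and leaving out PBS replicate 3 gave 19, beside 52.8% (50.9% as lower).

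Over the 27 genes the log2 fold changes had a median of -1.66 in the fit of all libraries, and of -0.64 once PBS replicate 2 was dropped. The corresponding medians over all entries were -1.85 and -0.66, and over the 1040 entries listed as lower -2.19 and -0.78. Scaling mattered for the sign. With RLE or TMM factors computed from the selected entries themselves, the median of all entries moved to -0.15 or -0.21 and that of the 27 genes to -0.02 or -0.05. Of the 26 genes listed as lower, 12 then had a fitted value above 0 with RLE and 10 with TMM factors. The factors given to PBS replicate 2 were 4.39 and 4.00.

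**Figure D2:**
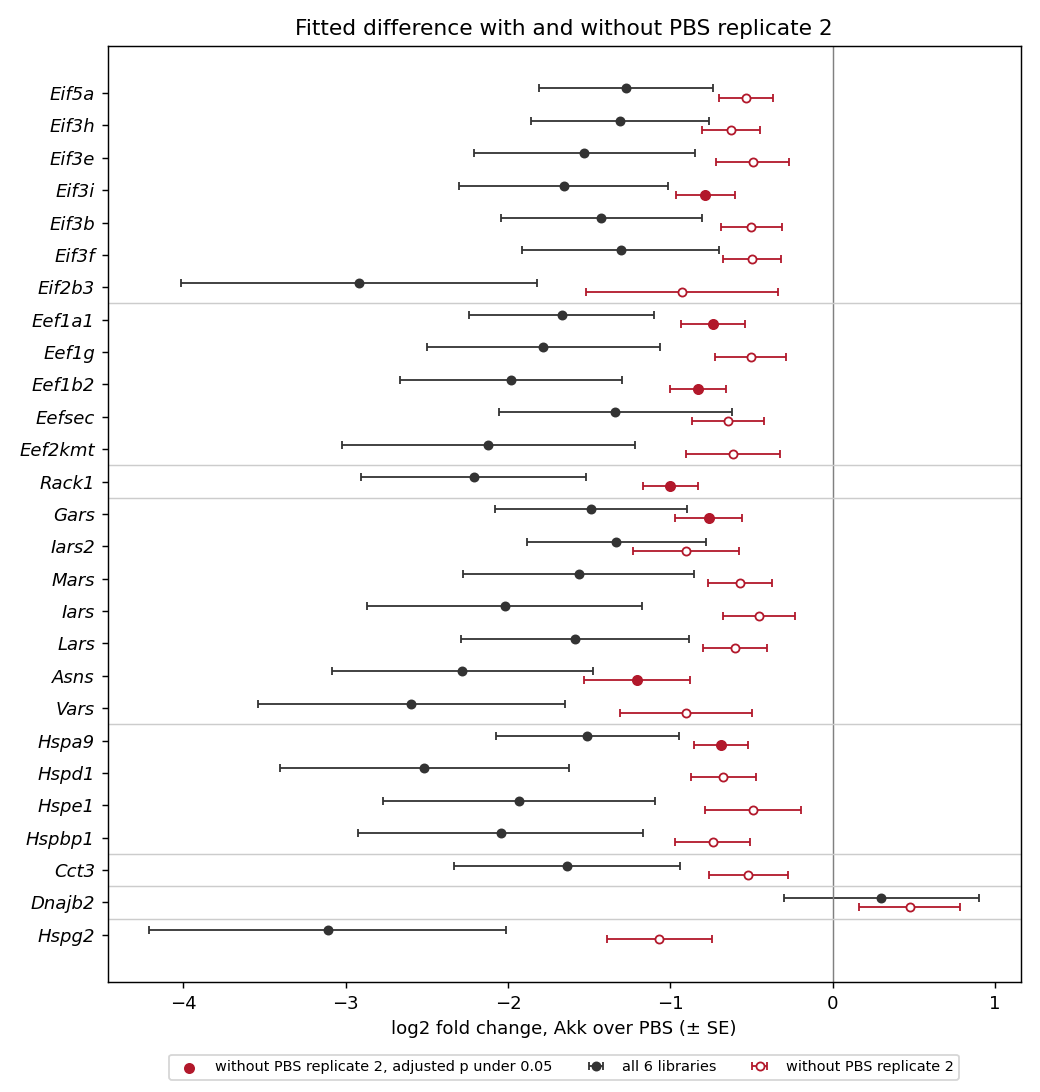
Fitted log2 fold change (Akk over PBS, bars are SE) of each gene with all 6 libraries (black) and without PBS replicate 2 (red; filled where the adjusted p was under 0.05), at the implied depth. Without PBS replicate 2 the 26 values left of 0 lie between -1.21 and -0.45, and 7 of them are filled; with RLE or TMM factors some lie right of 0, as given in the text.

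Among the initiation factors, all 7 had fitted values below 0 at the implied depth (median log2 fold change -1.42, and -0.54 without PBS replicate 2). Of these, Eif3b, Eif3e, Eif3f, Eif3h and Eif5a turned above 0 with both RLE and TMM factors. Eif3i encodes a WD-repeat subunit of eIF3. Its FPKM was 28.5, 95.9 and 26.7 in the PBS libraries and 16.6, 15.9 and 14.6 in the Akk libraries. The Akk values lay within a narrow range below the lowest PBS value. Eif3i had a log2 fold change of -1.66 (SE 0.64, edgeR adjusted p = 0.0861), and of -0.79 (SE 0.18, adjusted p = 0.0413) without PBS replicate 2, when it was the only initiation factor of the 7 to pass the edgeR test.

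Eif3h, another eIF3 subunit, had an FPKM of 50.3, 139.8 and 48.8 in PBS and 35.2, 31.6 and 29.4 in Akk. Eif5a, whose hypusine-bearing product helps the ribosome through difficult peptide bonds, was the most abundant gene of the class per length, at 117.9, 352 and 116.5 FPKM in PBS and 83.5, 78.8 and 79.5 in Akk. For both, PBS replicates 1 and 3 lay close together and well under PBS replicate 2. Leaving out PBS replicate 2, their edgeR adjusted p was 0.0505 and 0.0572, at log2 fold changes of -0.63 (SE 0.18) and -0.54 (SE 0.17).

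The other listed eIF3 subunits, Eif3b, Eif3e and Eif3f, had PBS over Akk ratios of 1.41 each when PBS replicate 2 was left out. The order of the 5 eIF3 subunits by FPKM was stable across conditions: Eif3h was first and Eif3f last in 6 of 6 libraries, and Eif3b was the fourth in each. Eif3e and Eif3i exchanged places between them from library to library.

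Eif2b3, the gamma subunit of the exchange factor eIF2B, was the least abundant initiation factor. It had 45, 375 and 40 counts in the PBS libraries and 8, 32 and 28 counts in the Akk libraries. Akk replicate 1 was the lowest library and PBS replicate 2 by far the highest. Its log2 fold change was -2.92 (SE 1.10, edgeR adjusted p = 0.0861), and -0.93 (SE 0.59, adjusted p = 0.185) without PBS replicate 2. At these counts, precision was low. In FPKM the highest Akk value (0.448) nearly touched the lowest PBS value (0.458). PBS replicate 3 had a lower CPM than PBS replicate 1 (1.46 and 1.73) but a higher FPKM (0.646 and 0.458). The length behind the FPKM of Eif2b3 therefore differed between libraries, and its FPKM and counts are not the same measure.

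The elongation genes were led by Eef1a1, which encodes the tRNA-delivering GTPase eEF1A1 (chromosome 9, 78478449 to 78489151, minus strand). Its FPKM was 965, 3461 and 914 in the PBS libraries and 583, 552 and 545 in the Akk libraries. All Akk libraries lay below all PBS libraries, and the spread among the 3 Akk values was small beside their distance from PBS replicate 3. Its mean was 560.2 ± 20.3 (SD, n = 3) in Akk and 1780 ± 1456 in PBS. The log2 fold change was -1.67 (SE 0.57, edgeR adjusted p = 0.0861), and -0.74 (SE 0.20, adjusted p = 0.0462) without PBS replicate 2.

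Eef1b2 and Eef1g encode the subunits of the eEF1B exchange factor that reload eEF1A with GTP and anchor the complex. Eef1b2 (chromosome 1, 63176825 to 63180486) had an FPKM of 43.0, 196.5 and 41.1 in PBS and 21.8, 25.5 and 25.5 in Akk. Eef1g had 51.0, 280.4 and 55.6 in PBS and 37.6, 45.1 and 29.9 in Akk. With PBS replicate 2 left out, Eef1b2 passed the edgeR test (log2 fold change -0.83, SE 0.17, adjusted p = 0.0409) and Eef1g did not (-0.51, SE 0.22, adjusted p = 0.0944); whether they differ from each other was not tested. Per length, Eef1a1 stood 17.6-fold to 26.8-fold above Eef1b2 and 12.2-fold to 18.9-fold above Eef1g across the 6 libraries.

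A pair of low-level genes completes the elongation set. Eef2kmt encodes a methyltransferase that modifies eEF2, and had an FPKM of 1.01, 7.05 and 1.12 in PBS and 0.768, 0.886 and 0.689 in Akk. Eefsec, which delivers the selenocysteine tRNA, had 1.905, 5.90 and 2.199 in PBS and 1.15, 1.51 and 1.35 in Akk. Neither passed the edgeR test with or without PBS replicate 2, while DESeq2 on all libraries called Eef2kmt (adjusted p = 0.0206) and not Eefsec (adjusted p = 0.071). All 5 elongation genes had fitted values below 0 at the implied depth (median log2 fold change -1.78, or -0.64 without PBS replicate 2), but Eef1g and Eefsec turned above 0 with RLE and Eefsec with TMM factors.

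Rack1, a WD-repeat scaffold of the small ribosomal subunit (chromosome 11, 48800332 to 48806434, plus strand), had the smallest p of the 27 genes. Its FPKM was 115.8, 565 and 112.8 in the PBS libraries and 57.3, 59.9 and 54.4 in the Akk libraries. PBS replicates 1 and 3 nearly coincided and were 1.999-fold above the Akk mean in CPM (counts scaled to the implied depth). Its log2 fold change was -2.21 (SE 0.69, edgeR adjusted p = 0.0861), and -0.999 (SE 0.17, adjusted p = 0.0352) without PBS replicate 2. It stayed below 0 with RLE and with TMM factors. An exon of Trim41 on the opposite strand overlaps Rack1, and whether the counting used strand is not given in the sources used here. Tpt1, Naca and Btf3, other genes of the rule that act at or near the ribosome, were not listed.

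Asns, asparagine synthetase, makes the amino acid asparagine and is a standard readout of ATF4. Its FPKM was 8.03, 29.6 and 5.62 in the PBS libraries and 1.89, 3.53 and 3.44 in the Akk libraries. Even without PBS replicate 2, the PBS level was 2.31-fold above Akk in CPM, the highest such ratio of the 27 genes. Its log2 fold change was -2.28 (SE 0.80, edgeR adjusted p = 0.0861), and -1.21 (SE 0.33, adjusted p = 0.0471) without PBS replicate 2.

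The listed tRNA synthetases charge valine (Vars), glycine (Gars), isoleucine (Iars, and Iars2 in mitochondria), leucine (Lars) and methionine (Mars). Together with Asns their median was -1.59 on the log2 scale (-0.76 without PBS replicate 2), and Gars, Lars and Mars turned above 0 with RLE, and Lars and Mars with TMM factors. Gars (chromosome 6, 55038007 to 55079500) was the most abundant of them per length, at 19.4, 51.8 and 15.6 FPKM in PBS and 10.8, 8.99 and 11.1 in Akk. It was the only synthetase to pass the edgeR test without PBS replicate 2 (edgeR log2 fold change -0.76, SE 0.20, adjusted p = 0.0462).

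Vars had an FPKM of 4.67, 38.8 and 5.08 in PBS and 1.35, 2.94 and 3.61 in Akk. PBS replicate 2 was 7.70-fold above the mean of the other PBS libraries, the highest excess among the synthetases, and Akk replicate 1 was well below the other Akk libraries. With PBS replicate 2 left out, the edgeR log2 fold change was -0.90 (SE 0.41, adjusted p = 0.0999). Iars2 showed the smallest excess of PBS replicate 2 among the 26 genes, 2.05-fold, at 11.1, 20.3 and 8.89 FPKM in PBS and 4.78, 3.87 and 7.69 in Akk. Its highest Akk library came near its lowest PBS library (log2 fold change -0.90, SE 0.33, adjusted p = 0.0705 without PBS replicate 2).

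Cytosolic Iars had 4.54, 32.3 and 4.75 FPKM in PBS and 3.73, 3.61 and 2.63 in Akk. The ratio of Iars to Iars2 was 1.59 in PBS replicate 2 and 0.342 to 0.932 in the other 5 libraries. Lars and Mars, which with Iars belong to the multisynthetase complex, were 1.51-fold and 1.49-fold higher in PBS replicates 1 and 3 than in Akk. Of 40 synthetases and scaffold proteins of that complex considered, these 6 were listed, all as lower. An exon of Ddit3, itself a stress-response gene, overlaps Mars on the opposite strand.

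**Figure D3:**
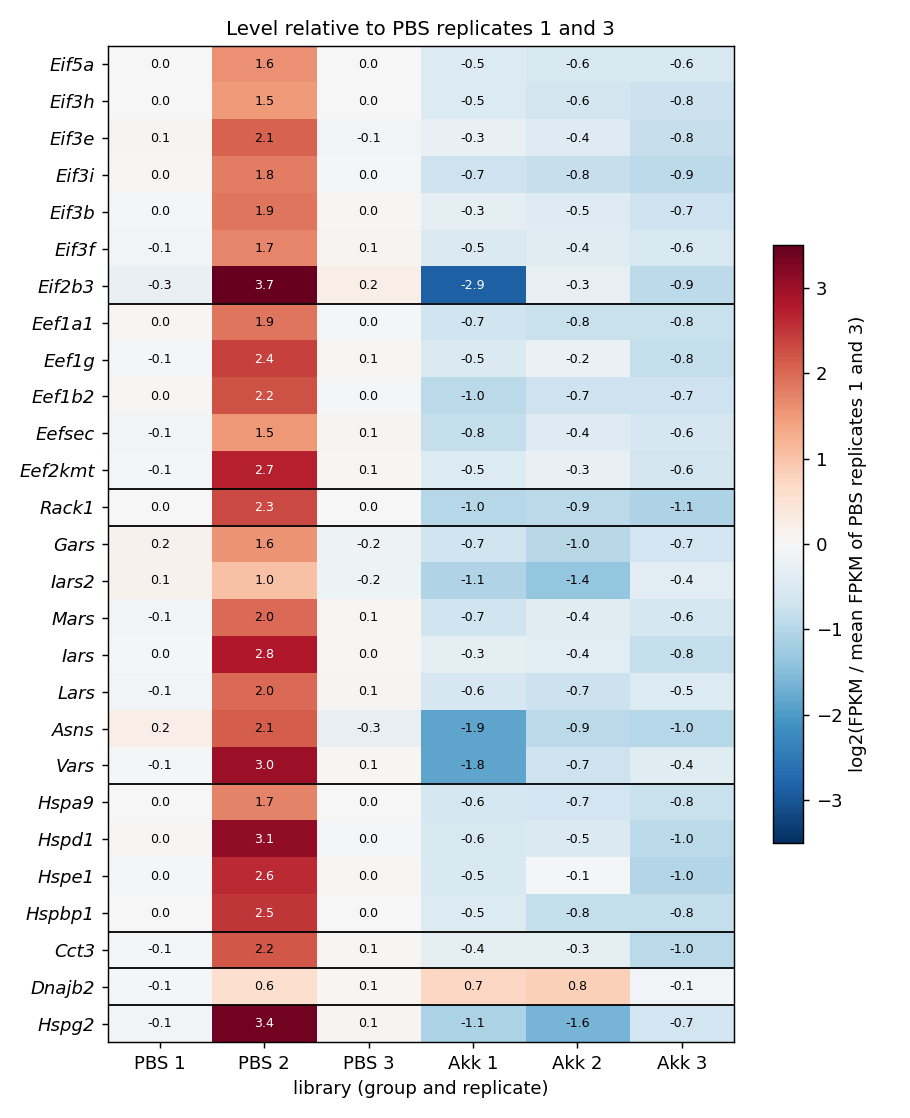
Log2 of each gene's FPKM over its mean in PBS replicates 1 and 3, for the 27 genes (rows) in the 6 libraries (columns). The PBS 2 column runs from 0.6 in Dnajb2 to 3.7 in Eif2b3, and the Akk columns are below 0 except for Dnajb2 in Akk 1 and Akk 2.

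Of the folding genes, Hspa9, Hspd1 and Hspe1 act in mitochondria. Hspa9 encodes mortalin, the mitochondrial Hsp70 (chromosome 18, 34937414 to 34954357). Its FPKM was 53.8, 177.7 and 53.6 in the PBS libraries and 35.0, 33.7 and 31.4 in the Akk libraries. PBS replicates 1 and 3 were nearly equal and 1.61-fold above the Akk mean in CPM. It was the only Hsp gene to pass the edgeR test without PBS replicate 2 (edgeR log2 fold change -0.69, SE 0.17, adjusted p = 0.0433), and the only one of the 4 to turn above 0 with RLE and TMM factors.

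Hspd1 (Hsp60) and Hspe1 (Hsp10) form the mitochondrial folding chamber and share the promoter region and the heat shock element printed above. Hspd1 had an FPKM of 35.2, 295.2 and 33.1 in PBS and 22.9, 23.9 and 17.7 in Akk. Hspe1 had 21.4, 135.5 and 22.7 in PBS and 15.3, 20.98 and 10.7 in Akk. In both, Akk replicate 3 was the lowest library, and in Hspe1 Akk replicate 2 came close to PBS replicate 1. Their ratio, Hspd1 over Hspe1 per length, was 2.18 in PBS replicate 2 and 1.14 to 1.65 in the other libraries. Exons of Hspd1 and Hspe1 overlap on opposite strands, so their reads could mix if the counting did not use strand. PBS replicate 2 exceeded the other PBS libraries by 8.76-fold for Hspd1 and 6.15-fold for Hspe1. Without it, the edgeR log2 fold changes were -0.67 (SE 0.20, adjusted p = 0.0548) and -0.49 (SE 0.30, adjusted p = 0.171).

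Hspbp1, a nucleotide exchange factor of cytosolic Hsp70, had an FPKM of 3.39, 19.3 and 3.45 in PBS and 2.45, 1.92 and 1.91 in Akk. Cct3, the gamma subunit of the TRiC/CCT chaperonin that folds actin and tubulin, had 20.9, 99.8 and 23.4 in PBS and 17.3, 17.6 and 11.5 in Akk. For Cct3 the log2 fold change was -0.52 (SE 0.24, edgeR adjusted p = 0.107) without PBS replicate 2, and above 0 with RLE and TMM factors. Of the 17 chaperonin and prefoldin genes considered, Cct3 alone was listed.

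Dnajb2, an Hsp40 co-chaperone that passes ubiquitinated clients of Hsp70 toward degradation, was the exception to the common direction. Its FPKM was 3.86, 6.13 and 4.24 in the PBS libraries and 6.71, 7.16 and 3.81 in the Akk libraries. The groups overlapped: Akk replicates 1 and 2 were the highest libraries, while Akk replicate 3 was the lowest of all. The authors' deposited table gives a log2 fold change of 0.63 with p = 0.0362. From the counts at the implied depth it was 0.30 (SE 0.60, edgeR adjusted p = 0.636), and 0.47 (SE 0.31, adjusted p = 0.195) without PBS replicate 2.

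Hspg2, the perlecan gene caught by its name, had the largest excess of PBS replicate 2 of all 27 genes in CPM, 10.4-fold. In FPKM the log2 ratio was larger for Eif2b3 (3.67) than for Hspg2 (3.38). Hspg2 had 144, 1446 and 173 counts in PBS and 81, 54 and 97 in Akk. Its log2 fold change was -3.11 (SE 1.10, edgeR adjusted p = 0.0861), and -1.07 (SE 0.32, adjusted p = 0.056) without PBS replicate 2.

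Here and above, the excess of PBS replicate 2 is its CPM over the mean of PBS replicates 1 and 3. Its median was 4.24-fold over the 26 genes listed as lower, against 5.74-fold over all 1040 such entries. Cytosolic ribosomal protein genes, 73 by name, lay close by, with a median of 4.19-fold. Crypt markers moved with the same library. Of 22 proliferation markers, 21 were listed, with a summed FPKM of 74.6, 683 and 59.8 in the PBS libraries and 30.04 to 45.6 in Akk. Of 12 stem cell markers 6 were listed, summing to 13.98, 629 and 14.96 in PBS and 7.45 to 10.8 in Akk. Of 13 Paneth cell markers 10 were listed, summing to 215, 8745 and 241 in PBS and 168.0 to 196.5 in Akk. The median excess was 11.001-fold, 20.2-fold and 32.0-fold for these lists. No listed defining marker was at 0 in any library. Of 12 enterocyte markers only Apoa4 and Apob were listed, both as higher, with sums of 1976, 558 and 3330 in PBS and 3911 to 5341 in Akk. The other enterocyte markers were not listed, so no direction is given for them. Of 8 goblet cell markers, Muc13 and Zg16 were listed as higher, with sums of 1510, 1246 and 2062 in PBS and 2094 to 2996 in Akk. Of 8 enteroendocrine markers, Gip and Sst were listed as higher and Gcg as lower. The part of cell composition in the differences of the 27 genes was not tested. Markers of tuft, T, B and plasma, myeloid, stromal and erythroid cells were not listed and not analysed here; of 10 pancreatic markers Clps was listed, at 66.1 FPKM in PBS replicate 2 and 1.24 to 2.45 in the other libraries.

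**Figure D4:**
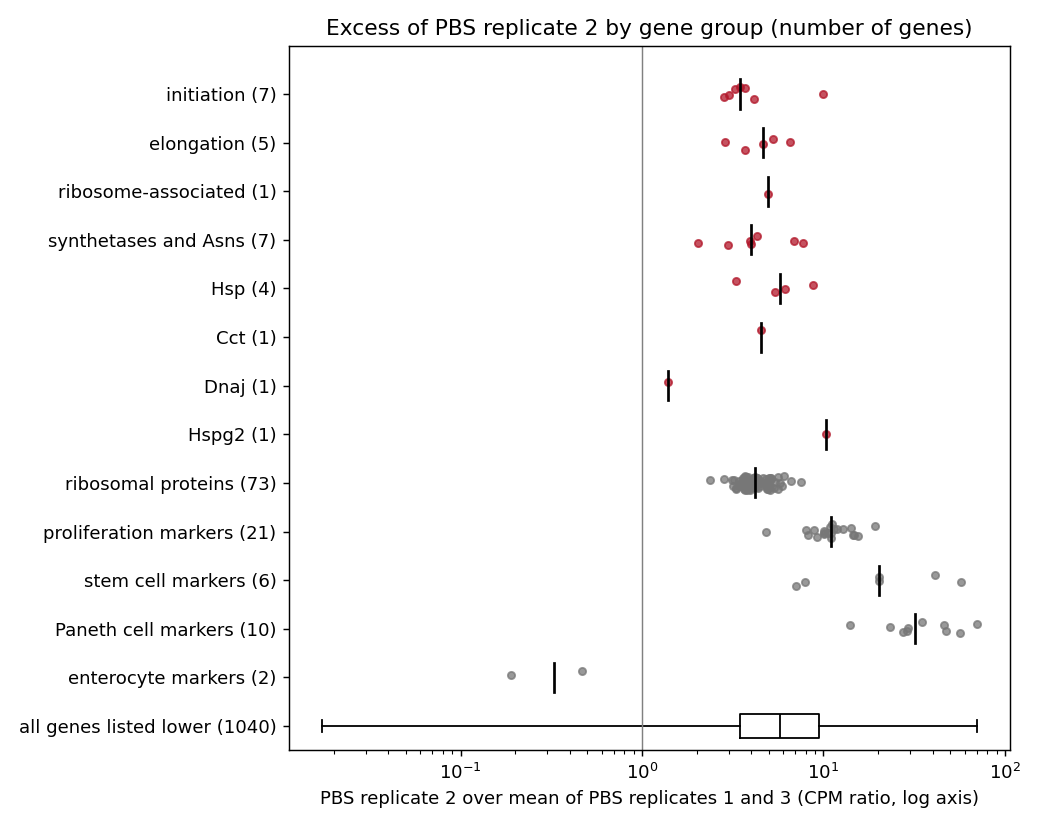
Ratio of PBS replicate 2 to the mean of PBS replicates 1 and 3 (CPM, log axis) for each gene, by role for the 27 genes (red) and for comparison lists (grey), with black bars at the medians; the box for all 1040 genes listed as lower spans the quartiles and its whiskers the full range. Most red points lie between 2 and 10, near the ribosomal protein genes and left of most proliferation, stem and Paneth cell markers.

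Other genes of the same pathways were taken from lists of known members, and none passed the edgeR test with all 6 libraries; DESeq2 made calls there, given beside the lists for which they were counted. Of 61 translation factors considered, 12 were listed, all as lower; Pabpc4, a poly(A)-binding protein, was the only one outside the name rule. Of 37 genes of the ATF4 program and amino acid supply, 9 were listed, all as lower (median log2 fold change -2.28, and -0.90 without PBS replicate 2), and all 9 had fitted values below 0 under both RLE and TMM scaling. With RLE and TMM factors, 61 and 65 of the 73 cytosolic ribosomal protein genes were below 0. That share over all entries was not counted. When PBS replicate 2 was dropped, 3 of the 9 passed as lower: Asns, Slc7a1 and Shmt2. Such calls were made for 17.7% of all entries, and for 246 of the 1040 listed as lower. Slc7a1, the carrier of cationic amino acids, had an FPKM of 2.32, 21.6 and 2.57 in PBS and 0.956, 1.10 and 1.17 in Akk (edgeR log2 fold change -1.18, SE 0.20, adjusted p = 0.0352 without PBS replicate 2). Shmt2, which feeds mitochondrial one-carbon units, had 6.86, 35.2 and 7.26 in PBS and 3.74, 4.26 and 4.74 in Akk (-0.73, SE 0.20, adjusted p = 0.049). Phgdh and Psat1 of serine synthesis, Slc7a5, Mthfd2, Mthfd1l and the transcription factor Atf5 were listed as lower and did not pass the edgeR test with or without PBS replicate 2, whereas DESeq2 on all libraries called each of the 7 genes of this list to which it gave an adjusted p. Among all entries with an adjusted p, DESeq2 called 63.3% as lower. Atf4, Ddit3, Trib3 and Chac1 were not listed.

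Of 27 genes of mitochondrial import and folding, 9 were listed, all as lower (median log2 fold change -1.73, and -0.67 without PBS replicate 2); 4 turned above 0 with RLE and 2 with TMM factors. Besides Hspa9, the genes past the threshold without PBS replicate 2 were Phb, an inner-membrane scaffold protein, and Trap1, the mitochondrial Hsp90. These calls, 3 of the 9, stand beside 17.7% of all entries and 246 of the 1040 listed as lower. Trap1 had an FPKM of 22.9, 72.8 and 20.6 in PBS and 12.8, 12.4 and 11.6 in Akk (edgeR log2 fold change -0.83, SE 0.18, adjusted p = 0.0409 without PBS replicate 2). Tomm40, Tomm5, Timm50 and Lonp1 did not pass the edgeR test with or without PBS replicate 2, whereas DESeq2 on all libraries called each of the 8 genes of this list to which it gave an adjusted p. The DESeq2 share of lower calls over all entries with an adjusted p was 63.3%. Of 24 genes of the endoplasmic reticulum chaperones and unfolded protein response, Hspa5 and Hsp90b1 among them, 0 were listed. The share listed among all measured genes was not computed here, and not being listed does not show that a gene was unchanged. Of 21 cytosolic co-chaperones outside the name rule, Ptges3, the Hsp90 partner p23, alone was listed (lower). Of 26 genes of mTORC1 and translation control, Myc, Pdcd4, Deptor and Lars were listed, all as lower, and none passed the edgeR test without PBS replicate 2. Of 27 factors at the nascent chain, Rack1, Naa50 and Naa10 were listed.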

How the data were processed

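The authors deposited, per the file headers, whole-number counts and FPKM per gene for 6 libraries, and their own p-value and log2 ratio of Akk to PBS for each gene; the submitters' processing notes name mm10. Their aligner, counter, annotation, strand setting and test are not named in the labels or headers. Deposited log2 values and p-values are quoted only where named. Of 1388 lines, 2 held only annotation text. All 1322 Ensembl identifiers were found in GENCODE M21 (GRCm38), which gave coordinates.

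Library size was the depth implied by count over FPKM (560 genes with at least 200 counts in every library; absolute level from exon lengths of 548). All 1386 entries were fitted with edgeR 4.0.16 (R 4.3.3; filterByExpr, glmQLFit, glmQLFTest), Akk against PBS, with Benjamini-Hochberg adjustment; the SE was the log2 fold change over the square root of F. The fit was also run on simulated counts with less spread, no library set apart and no selection for a difference. That run does not show how the fit behaves under the conditions here. DESeq2 1.42.0 and limma 3.58.1, other scaling, filters, FPKM with pseudocounts of 0.1 and 1, a replicate term and leaving out each library were alternatives. Near-identical copies (blastn 2.17.0, coding sequence, at least 95% over 300 bases) were annotated for 8 of the 27 genes, 8 of them for Eef1a1, 4 for Eef1g and 2 for Eif3e; their counts may include or lose reads of these copies. In 8 genes, among them Rack1, Mars, Hspd1, Hspe1, Eef1b2 and Iars2, an exon is overlapped on the opposite strand. Their counts may include reads of the overlapping gene if strand was not used.

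The genes and lists were chosen with earlier results of these data known. In each class up to 4 genes with the smallest p, each gene listed as higher and those with the highest and lowest excess of PBS replicate 2 were named with values; others are given briefly.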

Additional observations from a re-analysis of the deposited data

How the results depend on the processing

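With all 6 libraries the count of 0 of the 27 genes called by edgeR was also 0 with RLE or TMM factors, limma-voom, limma on FPKM and the replicate block, and 22 with DESeq2. Leaving out 1 library gave 0 to 19 genes (16, 7 and 19 without PBS replicates 1 to 3, 0 without each Akk replicate), and a median log2 fold change of -1.97 to -0.64. That median was -1.66, moved to -0.021 with RLE and -0.053 with TMM factors, and was -1.31 with the replicate block. Filters on low counts removed no gene. Values above 0 with RLE and TMM factors were 0.10 and 0.038 for Cct3, 0.15 and 0.10 for Eefsec, 0.21 and 0.15 for Eif3b, 0.16 and 0.10 for Eif3e, 0.26 and 0.20 for Eif3f. They were 0.18 and 0.13 for Eif3h, 0.24 and 0.20 for Eif5a, 0.059 and 0.007 for Hspa9, 0.074 and 0.017 for Lars, 0.10 and 0.038 for Mars, and with RLE alone 0.033 for Eef1g and 0.017 for Gars. Both scalings rest on the listed genes alone, all of them selected for a difference. The count of 26 genes without overlap was 26 or 27 when a library was left out, which cannot lower it, and 26 on FPKM. Deviations of same-numbered libraries from their group means correlated at 0.24, -0.06 and -0.30. Resting on the selected entries, these values cannot decide whether the numbers pair the samples, and the labels do not say.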

Other observations

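Within the Akk group the genes did not share 1 order of libraries, and this was seen after the values were known. Akk replicate 3 was the lowest Akk library for 16 of the 27 genes, among them all 4 Hsp genes, Cct3 and 5 of the 7 initiation factors. Vars, Asns, Mars, Eef1b2, Eefsec and Eif2b3 were instead lowest in Akk replicate 1. For Vars the FPKM was 1.35 there against 2.94 and 3.61 in the other Akk libraries, and for Asns 1.89 against 3.53 and 3.44. Ribosomal protein genes were lowest in Akk replicate 1 for 50 of 73 and in Akk replicate 3 for 18. Of the 1040 entries listed as lower, 481 were lowest in Akk replicate 1 and 274 in Akk replicate 3, and of all 1386 entries 553 and 514. No group comparison in this design bears on these differences between libraries of 1 group.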
